A study of Mus musculus with 45 samples.

Results

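Enzymes that oxidise and conjugate foreign compounds were followed in sorted tuft cells of mouse small intestine, with the mice on a reference diet (RFD) or a high-fat diet (HFD). The genes were chosen by name. They are the protein-coding genes of the cytochrome P450 families Cyp1, Cyp2 and Cyp3, the glucuronosyltransferases Ugt1 and Ugt2, the sulfotransferases (Sult) with the enzymes that make their sulfate donor (Papss1 and Papss2), and the glutathione transferases of the alpha, mu, pi, theta, omega and kappa classes (Gsta, Gstm, Gstp, Gstt, Gsto, Gstk). The name rule matched 124 genes, and 54 of them exceeded 5 reads in 6 or more of the 45 libraries. These 54 are among 14020 genes that passed the same filter and were tested. The filter does not use the diet label, but a gene low on RFD can pass it through HFD libraries. The 70 matching genes that did not pass it are not described by a test.

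Male C57BL/6J mice, 5 weeks old on arrival, were kept at 30 °C with 4 mice of one diet per cage. RFD had 10% fat and HFD 60% fat. Per the labels, epithelial cells bearing EpCAM, CD45 and Siglec-F were sorted from each mouse, and the RNA was amplified and sequenced in bulk. The methods of the study name the same gate in one place and the removal of CD45-bearing cells in another, so the CD45 gate is not settled. The libraries fall into an STF set (11 RFD and 11 HFD) and an LTF set (11 RFD and 12 HFD), named after the prefixes of the sample titles. The labels give 9 weeks of feeding for all 45 libraries, whereas the methods of the study describe 9 and 22 weeks, so a difference between the sets cannot be told apart from one between times. Mice of a cage shared a diet and are not fully independent, and the p-values do not account for it. Total reads ranged from 189340 to 4690213 per library, with group medians of 1348669 to 1813398.

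The enzymes act in sequence on drugs, plant compounds, bile pigments and steroids. P450 enzymes sit in the endoplasmic reticulum and insert an oxygen atom, with electrons from P450 reductase. Glucuronosyltransferases add glucuronic acid taken from UDP-glucuronate, sulfotransferases add sulfate taken from PAPS, and glutathione transferases add glutathione, after which transporters carry the products out of the cell. In the small intestine this system is best known from absorptive enterocytes. Tuft cells are rare chemosensory cells of the same epithelium, so the sorted libraries were also checked for the markers of both.

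All 19 tuft cell markers that were checked had enough reads to be tested, and so did all 16 enterocyte markers. Summed over the 19 genes, tuft markers had a median of 19600 CPM (reads scaled to a common library size after TMM normalization) in STF RFD and 8198 CPM in STF HFD, with ranges of 4556 to 30090 and 421.5 to 29130. The LTF medians were 21280 CPM on RFD and 16530 CPM on HFD. Of the 19 tuft markers, 18 were lower on HFD in the STF set and 17 in the LTF set, with median log2 fold changes of -0.93 and -0.37, and none passed the edgeR test at an adjusted p under 0.1 in either set, where 6 and 3 of them had an unadjusted p under 0.05. With both sets in one fit, 4 of the 19 tuft markers fell by edgeR and 0 rose, where 5.68% of all genes fell. The median log2 fold change of the tuft markers in that fit was -0.64. The summed enterocyte markers were at 13450 and 9290 CPM in STF RFD and HFD. In LTF RFD and HFD the enterocyte sums were 19360 and 20690 CPM. Enterocyte transcripts were therefore present in every library, the lowest sum being 6123 CPM. Paneth cell markers had medians of 2733 CPM in STF RFD and 28200 CPM in STF HFD, where single libraries ranged from 117.1 to 600700 CPM, and stem cell markers of 412.3 and 1315 CPM. Of the 5 stem cell markers, 2 rose in the STF set by edgeR, where 2.0% of all genes rose, and of the 9 enteroendocrine markers, 4 fell in the LTF set, where 0.357% of all genes fell. Of the enterocyte markers, Mttp rose and Slc5a1 fell in the LTF set (0.792% of all genes called), and edgeR called 0 of the 16 in the STF set, where 6 had an unadjusted p under 0.05. Bulk libraries do not tell fewer cells of a type from less RNA per cell.

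**Figure D1:**
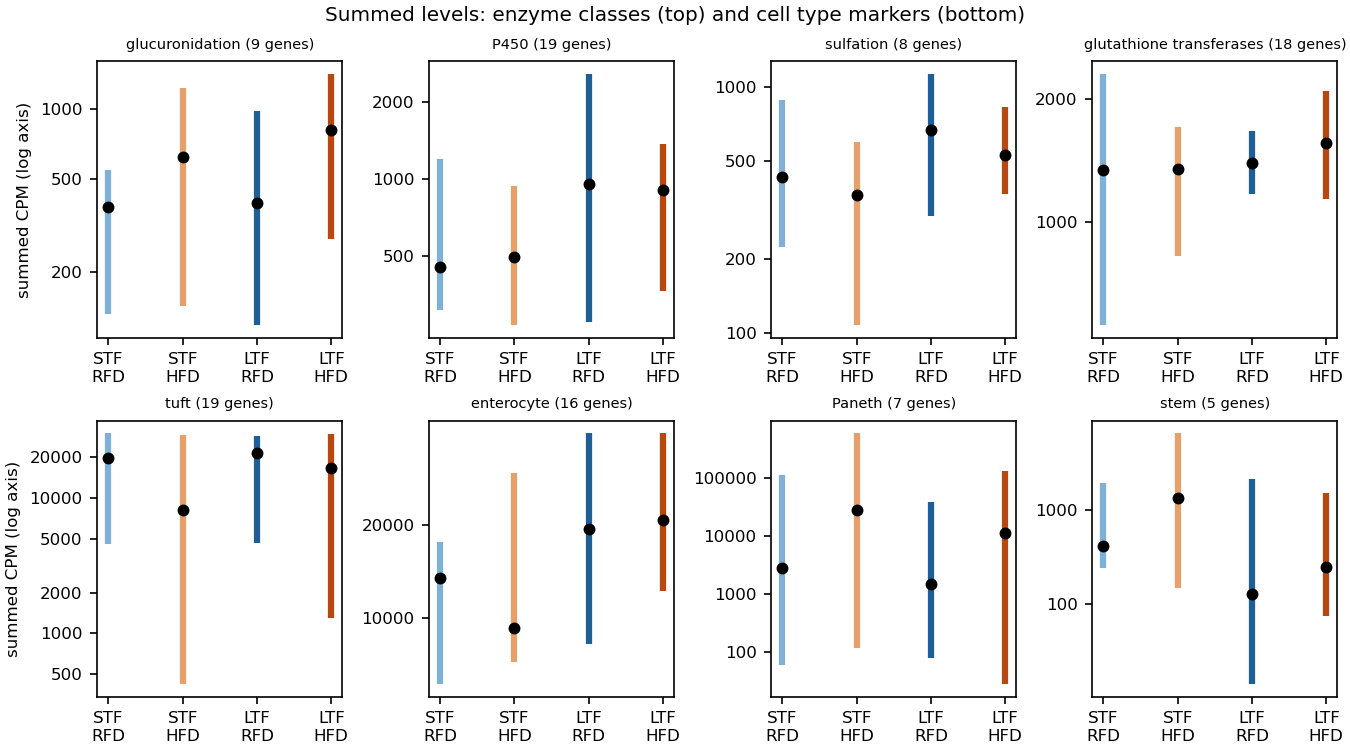
Summed CPM (log axis) of the 4 enzyme classes in the top row and of 4 cell type marker lists in the bottom row, by group, with a bar from the lowest to the highest library and a dot at the median. The glucuronidation genes have higher medians on HFD in both sets, tuft markers have lower medians on HFD, and all groups overlap.

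The promoter sequences of the glucuronidation genes and of Cyp3a11 are shown because the diet results below turn on several of these genes. Windows from 250 bases before to 50 bases after the transcription start were available in RefSeq (GRCm38.p6) for 49 of the 54 genes. The 9 mouse Ugt1a genes lie in one cluster on chromosome 1, where 3 exons are annotated with the same bounds in every gene. These exons, at chr1:88215044-88215175, chr1:88215795-88215882 and chr1:88216138-88216357, are annotated to all 9 genes. The last exon also starts at the same base, chr1:88218127, in all 9 genes. Its annotated ends differ, from 88218997 to 88220002, so most of the shared sequence lies there. The 100 bases before the starts of Ugt1a1 (chr1:88211859-88211958, plus strand), Ugt1a9 (chr1:88070679-88070778, plus strand) and Ugt1a7c (chr1:88094901-88095000, plus strand) are written with the HNF1 core, GTTAAT, in capitals. It lies on the opposite strand in both genes that hold it and so reads ATTAAC.
Ugt1a1: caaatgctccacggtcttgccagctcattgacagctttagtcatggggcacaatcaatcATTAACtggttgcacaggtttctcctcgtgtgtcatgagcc
Ugt1a9: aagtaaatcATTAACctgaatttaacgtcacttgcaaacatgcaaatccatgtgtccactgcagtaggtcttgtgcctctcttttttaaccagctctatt
Ugt1a7c: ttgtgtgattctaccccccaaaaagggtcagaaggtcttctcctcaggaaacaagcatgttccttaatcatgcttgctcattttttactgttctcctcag

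The HNF1 core was found from position -41 to -36 before Ugt1a1, from -91 to -86 before Ugt1a9 and from -50 to -45 before Ugt1a6a, and nowhere in the window of Ugt1a7c. On both strands it occurred in 7.1% of all 32851 promoter windows and in 13.3% of the 60 windows of the member genes, which are 8 of the 49 genes, 3 of them among the 4 Ugt1a genes. The nuclear receptor core, AGGTCA, occurred in 16.3% of all windows and in 21.7% of member windows (12 genes). Ugt2b5 and Ugt2b36, which lie on chromosome 5, hold it at nearly the same distance from the start, from -22 to -17 and from -25 to -20. Their last bases before the start lie at chr5:87140341-87140400 and chr5:87092556-87092615 on the minus strand. At the shift with the most matches they were identical at 48 of 57 aligned positions (84.2%). No other pair of promoters was aligned, so this share has no reference. The core is in capitals.
Ugt2b5: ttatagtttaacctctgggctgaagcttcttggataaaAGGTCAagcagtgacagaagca
Ugt2b36: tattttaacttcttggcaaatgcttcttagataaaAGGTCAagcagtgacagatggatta

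The same core is also in the windows of Ugt1a7c, Ugt1a9, Ugt2b35, Cyp3a25 and Cyp3a44. Of these, Ugt2b35, Cyp3a25 and Cyp3a44 passed in none of the diet tests below. Cyp3a11 holds the core from -162 to -157 in the 200 bases before its start (chr5:145879855-145880054, minus strand), where it is again in capitals.
Cyp3a11: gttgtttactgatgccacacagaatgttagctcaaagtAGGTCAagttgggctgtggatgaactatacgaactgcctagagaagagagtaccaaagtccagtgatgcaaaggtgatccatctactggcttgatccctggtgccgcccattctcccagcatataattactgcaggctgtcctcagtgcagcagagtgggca

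The core of the aryl hydrocarbon receptor site, GCGTG, was in 32.4% of all windows and in 26.7% of member windows (13 of the 49 genes), none of them a Ugt1, Ugt2 or Cyp3 gene. The antioxidant response element, TGACNNNGC, was in 12.4% of all windows and in 10.0% of member windows (6 genes), again none of the Ugt1, Ugt2 or Cyp3 families. These are matches of letters in the given windows, and binding was not measured.

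RSEM divides reads that fit several genes, so the extent of shared sequence was computed for each member from the GENCODE M21 transcripts. Of all 50-base windows of the longest coding transcript, fewer than 5% were shared with another gene in 30 of the 54 members, including Papss2 (0.0%), Sult2b1 (0.0%), Gstt1 (0.0%), Cyp3a13 (0.0%) and Ugt2b36 (0.3%). More than 20% were shared in 18 members. The share was 58.2% for Ugt1a1, 62% for Ugt1a9, 69.3% for Ugt1a7c and 100% for Ugt1a6a. It was 41.7% for Ugt2b5 and 14.8% for Cyp3a11. It was highest among the glutathione transferases in Gsta1 (89.7%), Gstp2 (72.6%) and Gstp1 (62.3%). How reads were split within the Ugt1a cluster, the Gstp pair and the Gsta1 copies is therefore uncertain.

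Compared per length as TPM, glutathione transferases were the most abundant members. Over the 45 libraries the median was 817 TPM for Gstp1, 213 TPM for Gsta1, 199.5 TPM for Gsto1 and 145 TPM for Gstt1. Among the conjugating enzymes of the other classes, Sult1b1, which sulfates phenols and thyroid hormones, was at 114 TPM and Ugt1a1 at 64.04 TPM. Ugt2b34 followed at 49.4 TPM. The most abundant P450 gene was Cyp3a13 at 48.0 TPM, and the highest of the Cyp2 family, Cyp2d26, Cyp2c65 and Cyp2b10, were at 35.4, 35.3 and 21.9 TPM. Every family of glutathione transferases and both Ugt families had members that passed the filter, as did 14 of 49 Cyp2 genes, 5 of 9 Cyp3 genes and 6 of 21 Sult genes. None of the 3 Cyp1 genes passed. Cyp1a1, the classical target of the aryl hydrocarbon receptor, had reads in 7 libraries with at most 8 in any of them. Just inside the filter were Sult4a1, with more than 5 reads in 6 libraries, and Cyp2a12 with 8. Just outside it, with 5 libraries each, were Cyp1b1, Cyp2c23, Cyp2c70 and Sult1a1.

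**Figure D2:**
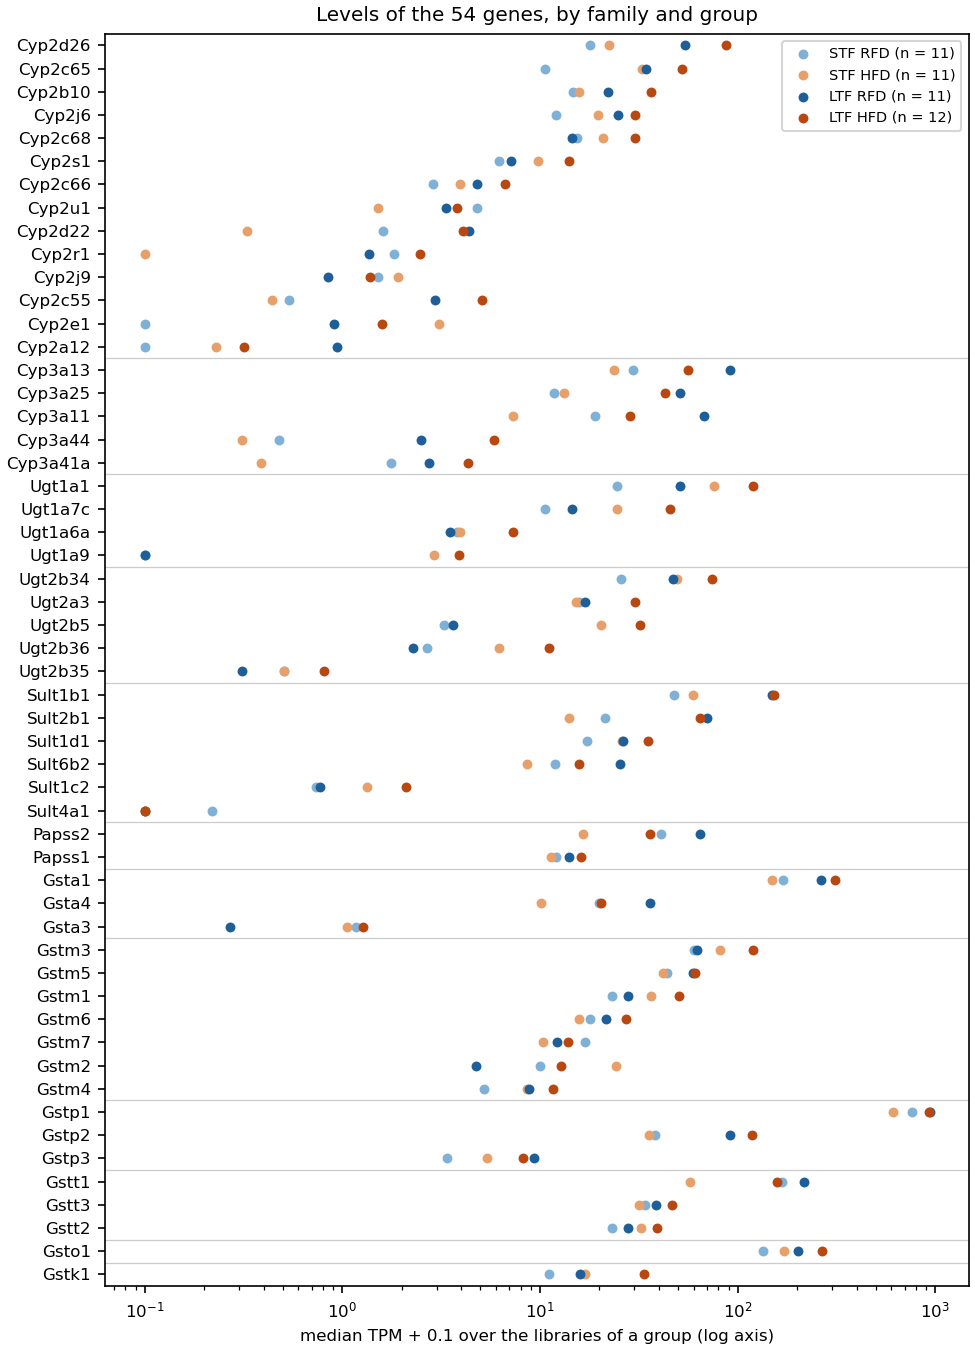
Median TPM + 0.1 (log axis) of each of the 54 genes over the libraries of a group, with genes ordered by family and by level within it. Gstp1 is the highest gene in all 4 groups, and genes at the left edge were at 0 TPM in the median library.

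In the STF set, 7 of the 54 genes passed the edgeR quasi-likelihood test at an adjusted p under 0.1, against 3.32% of all genes tested. Ugt1a1, Ugt1a7c, Ugt2b5 and Cyp2e1 rose on HFD and Papss2, Sult2b1 and Gstt1 fell. Over all genes, 2.0% rose and 1.33% fell by this rule. In the LTF set, 3 of 54 passed, against 0.792% of all genes: Ugt1a1 and Ugt1a9 rose (0.435% of all genes rose) and Cyp3a11 fell (0.357% of all genes fell). The median log2 fold change of the 54 genes was 0.15 in the STF set and 0.32 in the LTF set, and that of all genes tested was -0.05 and -0.03. The 2 sets share no mouse, and 41 of the 54 genes (75.93%) had the same direction in both, beside 70.41% of all genes tested.

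With the diets compared over both sets in one fit, 16 of the 54 genes passed, against 11.7% of all genes. Of these, 10 rose (6.03% of all genes rose) and 6 fell (5.68% of all genes fell), and 7 of the 16 had passed in neither set alone. Cyp2c68, Cyp2e1, Ugt1a1, Ugt1a7c, Ugt1a9, Ugt2b5, Ugt2b36, Gstm1, Gstm2 and Gstt2 rose. Cyp2d22, Cyp3a11, Cyp3a13, Sult2b1, Papss2 and Gstt1 fell. Each of the 16 had the same direction in both sets. In the test of whether the diet difference itself differed between the sets, edgeR called 0 of the 54 genes (0.0% of all genes called), and 2 had an unadjusted p under 0.05, Papss2 (p = 0.0259) and Cyp2u1 (p = 0.035).

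**Figure D3:**
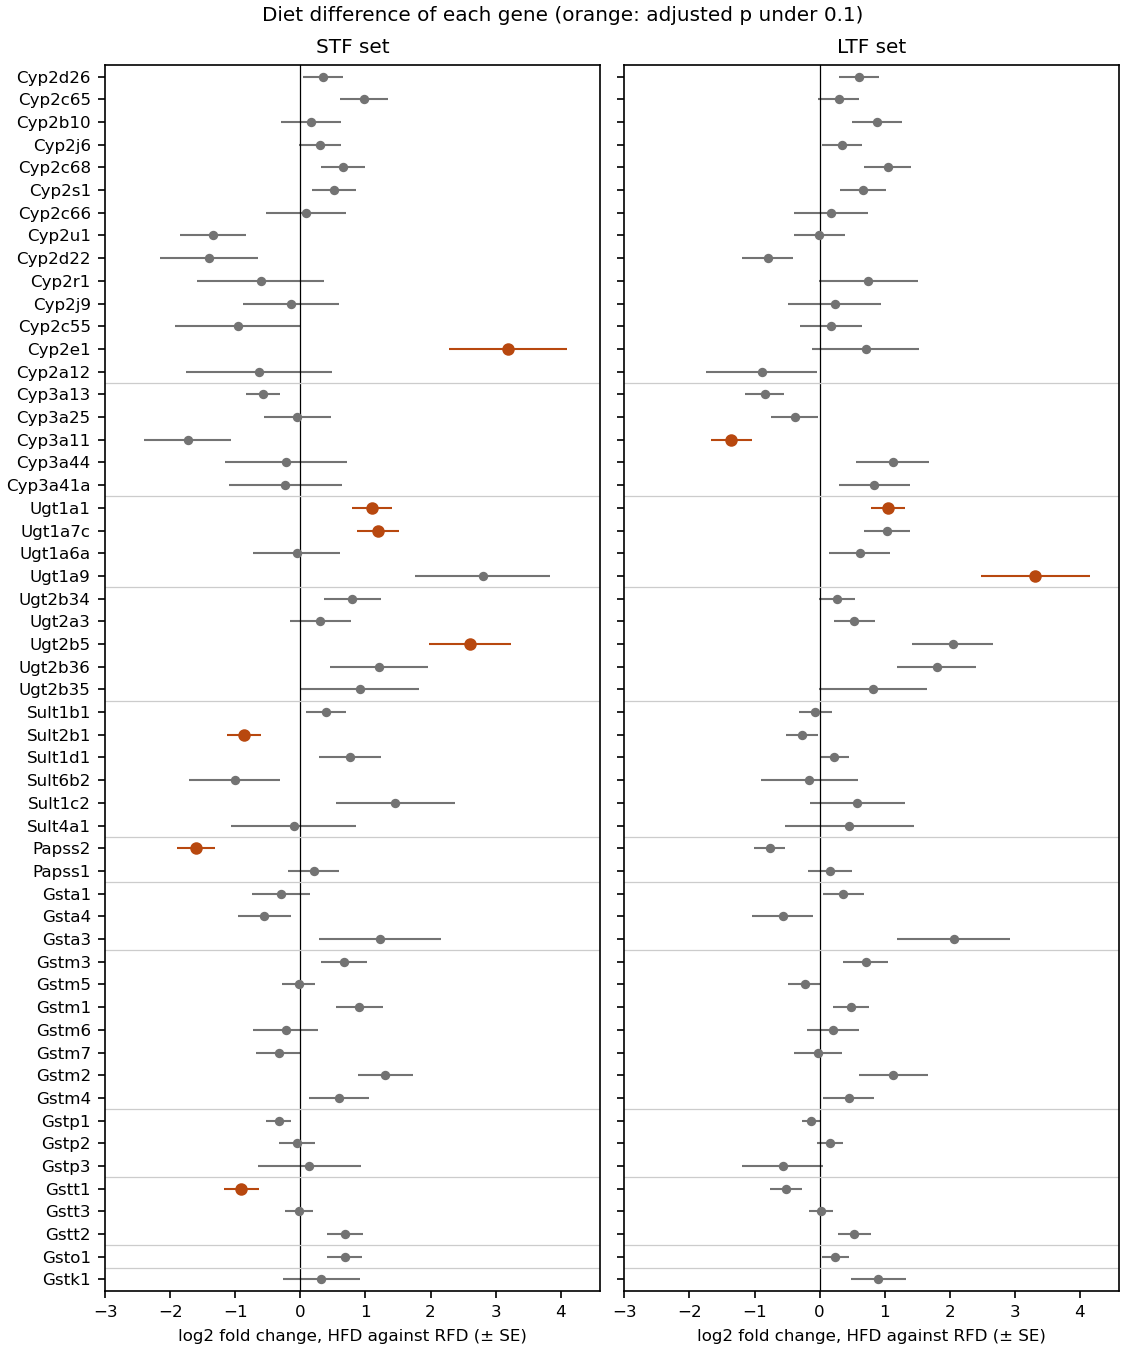
Log2 fold change of HFD against RFD with its standard error for each of the 54 genes, in the STF set (left, n = 11 and 11) and the LTF set (right, n = 11 and 12), with genes past an adjusted p of 0.1 in orange. The Ugt1 and Ugt2 genes lie to the right of 0 in both sets except Ugt1a6a in the STF set, and Cyp3a11, Papss2 and Gstt1 lie to the left in both.

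Most glucuronidation genes had higher fitted levels on HFD. In the STF set 8 of 9 were higher and 3 rose by edgeR (2.0% of all genes rose), with a median log2 fold change of 1.10 beside -0.05 for all genes. Within LTF 9 of 9 were higher and 2 rose (0.435% of all genes rose), with a median of 1.04 beside -0.03. Over both sets 5 of 9 rose (6.03% of all genes rose) and none fell, with a median of 1.06. The LTF and both-set calls include Ugt1a9, which would not have passed the filter on its RFD libraries alone. Its calls are therefore not independent support for the class. With the tuft marker level as a covariate, none of the 3 STF calls passed edgeR. Summed over the 9 genes, the median library had 381.2 CPM in STF RFD and 624.5 CPM in STF HFD, and 396.0 and 817.7 CPM in the LTF groups. Summing the 4 Ugt1a genes removes the question of how reads were split among these 4. Their sum had a median of 205.5 CPM (range 52.64 to 248.9) in STF RFD and 320.3 CPM (110.3 to 499.3) in STF HFD. The LTF sum was 185.6 CPM (57.18 to 388.2) on RFD and 448.8 CPM (122.1 to 707.2) on HFD. The groups overlapped in both sets.

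Ugt1a1 encodes the enzyme that glucuronidates bilirubin. Its lowest, median and highest library had 34.19, 106.9 and 183.4 CPM in STF RFD and 66.97, 204.2 and 317.8 CPM in STF HFD. LTF libraries had 34.45, 119.1 and 231.0 CPM on RFD and 97.2, 260.2 and 463.2 CPM on HFD. The groups overlapped, with 8 of 11 STF HFD libraries and 6 of 12 LTF HFD libraries above every RFD library of their set. The log2 fold change was 1.10 (SE 0.30, edgeR adjusted p = 0.0695) in the STF set and 1.05 (SE 0.26, edgeR adjusted p = 0.0614) in the LTF set. It was the 1 member called in both sets. Its STF call was lost once the number series was a batch term (edgeR adjusted p = 0.108). The same call was lost without libraries under 500000 reads (edgeR adjusted p = 0.138) and with limma on log2(TPM + 1) (adjusted p = 0.324). Its LTF call was lost with limma on log2(TPM + 1) (adjusted p = 0.152) and with the rank-sum test (adjusted p = 0.128). Over both sets the log2 fold change was 1.06 (SE 0.20, edgeR adjusted p = 0.000853). Within the 3 series of mouse numbers the difference was 1.72, 1.07 and 0.58 on the log2 scale in the STF set and 1.00, 1.59 and 0.76 in the LTF set.

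Ugt1a7c ran from 8.954 through a median of 40.22 to 90.02 CPM in STF RFD and from 25.69 through 95.12 to 154.3 CPM in STF HFD. It ran from 11.73 through 48.22 to 185.9 CPM on RFD and from 23.13 through 139.3 to 212.0 CPM on HFD in the LTF set. HFD libraries lay mostly above the RFD median, 9 of 11 in the STF set and 11 of 12 in the LTF set. Ugt1a7c had a log2 fold change of 1.19 (SE 0.32, edgeR adjusted p = 0.0662) in the STF set, 1.04 (SE 0.35, edgeR adjusted p = 0.24) in the LTF set and 1.08 over both (edgeR adjusted p = 0.00606).

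Ugt1a9 was at or near the limit of detection on RFD, where 3 STF and 2 LTF libraries had more than 3 of its reads. Its RFD libraries alone would not have met the filter. Ugt1a9 was at 0 in 8 of 11 STF RFD and 8 of 11 LTF RFD libraries, with at most 6.026 and 3.243 CPM. It was at 0 in 3 libraries of each HFD group. Its HFD medians were 5.341 CPM in the STF set and 8.786 CPM in the LTF set, and 8 of 12 LTF HFD libraries were above every LTF RFD library. The log2 fold change was 3.32 (SE 0.84, edgeR adjusted p = 0.0754) in the LTF set and 2.80 (SE 1.04, edgeR adjusted p = 0.155) in the STF set. The size is uncertain at such counts. Its LTF call was lost with the rank-sum test (adjusted p = 0.149), and DESeq2 gave it no adjusted p there. Ugt1a6a, which acts on small phenols, had log2 fold changes of -0.06 and 0.62 with edgeR adjusted p of 0.978 and 0.699.

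Of the Ugt2 genes, all 5 were higher on HFD in both sets, with medians of 0.91 and 0.83 on the log2 scale. Ugt2b5 had 0.0, 7.578 and 37.14 CPM in its lowest, median and highest STF RFD library and 6.793, 40.82 and 159.5 CPM in STF HFD. The LTF values were 0.7673, 6.7 and 83.28 CPM on RFD and 0.0, 54.92 and 110.8 CPM on HFD. Single libraries cross between the groups in both sets, and 10 of 11 and 10 of 12 HFD libraries were above the RFD median. The log2 fold change was 2.61 (SE 0.63, edgeR adjusted p = 0.0543) in the STF set, 2.05 (SE 0.62, edgeR adjusted p = 0.183) in the LTF set and 2.29 over both (edgeR adjusted p = 0.00212). The STF call was lost once the number series was a batch term (edgeR adjusted p = 0.157). Ugt2b36 had log2 fold changes of 1.20 and 1.80 in the sets and 1.5 over both (edgeR adjusted p = 0.0573). Its median went from 4.533 to 14.58 CPM in the STF set and from 3.722 to 16.16 CPM in the LTF set. The both-set call of Ugt2b36 was lost with the tuft covariate given below (edgeR adjusted p = 0.259). The more abundant Ugt2b34 and Ugt2a3 passed in none of the 4 main fits (STF, LTF, both and the interaction). Their log2 fold changes over both sets were 0.49 (edgeR adjusted p = 0.25) and 0.40 (edgeR adjusted p = 0.408).

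**Figure D4:**
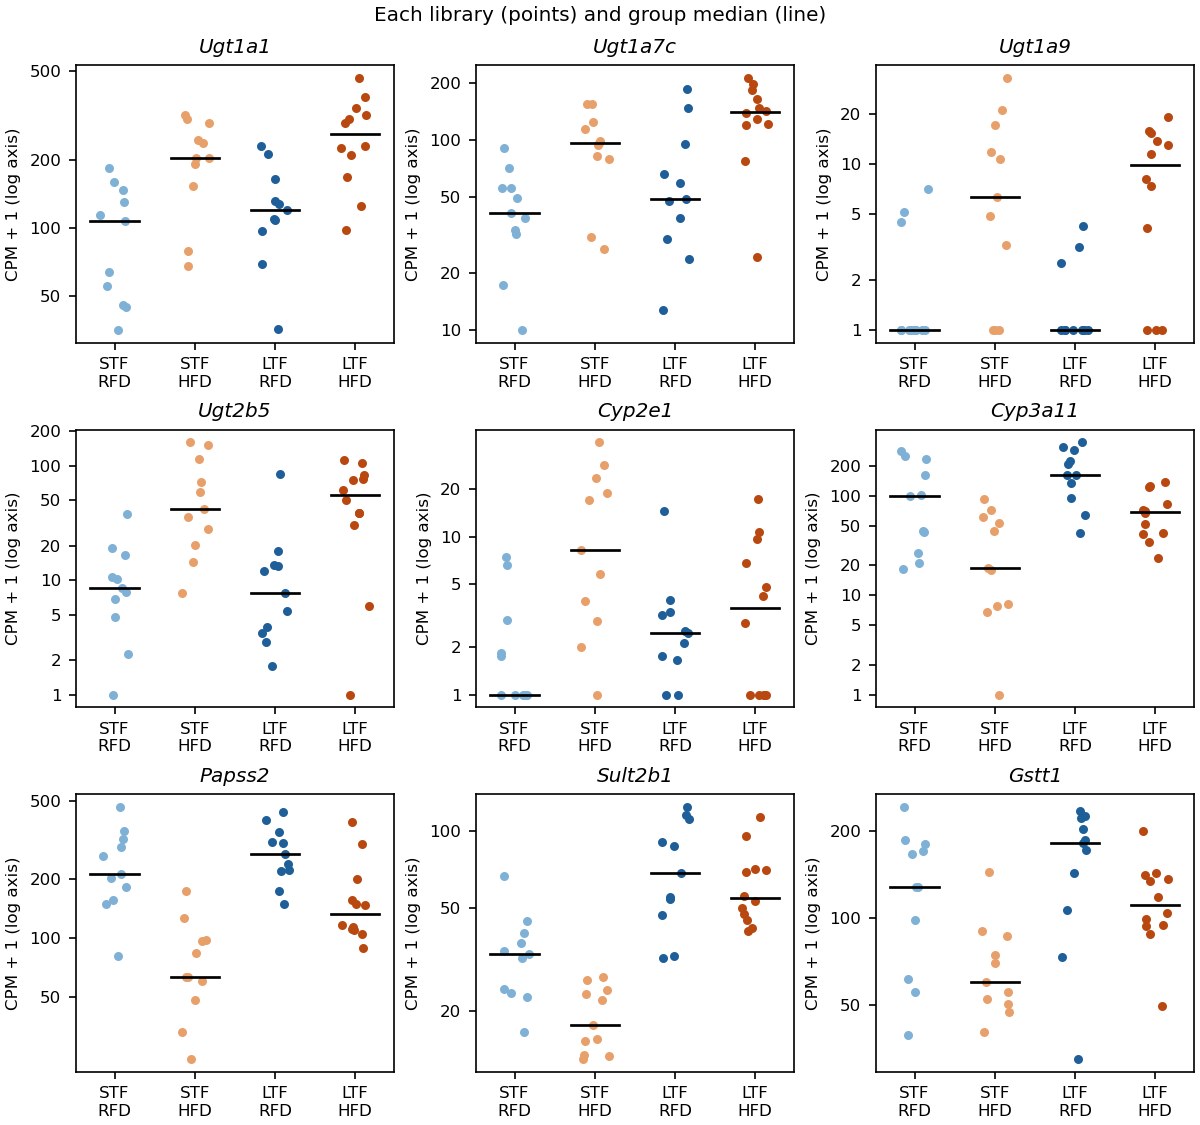
CPM + 1 (log axis) of the 9 genes called in the STF or the LTF set, with a point for each library and a line at the group median. Ugt1a1, Ugt1a7c, Ugt1a9 and Ugt2b5 have higher medians on HFD in both sets, Cyp3a11, Papss2, Sult2b1 and Gstt1 lower ones, and the groups of every gene overlap.

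P450 genes did not move in one direction. Of the 19 that passed the filter, 8 were higher and 11 lower on HFD in the STF set. In the LTF set 13 were higher and 6 lower. By edgeR, 1 rose in the STF set (2.0% of all genes rose) and 1 fell in the LTF set (0.357% of all genes fell). Over both sets 2 rose (6.03% of all genes rose) and 3 fell (5.68% of all genes fell). The Cyp3 family was lower in 5 of 5 genes in the STF set and 3 of 5 in the LTF set. Cyp3a11 encodes a broad-specificity P450 of liver and intestine. It had 17.33, 98.52 and 281.0 CPM in its lowest, median and highest STF RFD library and 0.0, 17.64 and 92.5 CPM in STF HFD. LTF libraries had 41.05, 159.6 and 341.9 CPM on RFD and 22.77, 66.84 and 134.6 CPM on HFD. All 11 STF HFD and all 12 LTF HFD libraries were below the RFD median of their set, although the groups overlapped. The log2 fold change was -1.36 (SE 0.31, edgeR adjusted p = 0.0406) in the LTF set and -1.74 (SE 0.67, edgeR adjusted p = 0.173) in the STF set. Over both sets it was -1.55 (edgeR adjusted p = 0.00818). In the LTF set the call held in 23 of 23 fits with 1 library left out, and the differences within the 3 number series were -1.37, -1.47 and -1.11. The LTF call was lost with limma on log2(TPM + 1) (adjusted p = 0.185) and with the rank-sum test (adjusted p = 0.128).

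Cyp3a13, the most abundant P450 gene here, went from a median of 154.9 to 104.4 CPM in the STF set and from 286.2 to 201.0 CPM in the LTF set. It passed in neither set alone, with log2 fold changes of -0.57 and -0.84 (edgeR adjusted p of 0.253 and 0.279). Over both sets it fell, by 0.72 on the log2 scale (edgeR adjusted p = 0.0262). That call was lost with limma on log2(TPM + 1) (adjusted p = 0.154). Cyp3a25 had -0.05 and -0.38. The low-count Cyp3a44 and Cyp3a41a, which share 26.5% and 98.6% of their windows with other genes, had -0.22 and -0.23 in the STF set and 1.12 and 0.84 in the LTF set, without passing.

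Among the Cyp2 genes, Cyp2e1, known for oxidising ethanol and other small molecules, rose in the STF set. It was at 0 in 6 of 11 STF RFD libraries with at most 6.455 CPM, and had a median of 7.316 CPM and a maximum of 38.8 CPM in STF HFD. Its log2 fold change was 3.19 (SE 0.91, edgeR adjusted p = 0.0757), and 6 of 11 HFD libraries were above every RFD library. Cyp2e1 lost that call without libraries under 500000 reads (edgeR adjusted p = 0.106). Its LTF log2 fold change was 0.71 (SE 0.83, edgeR adjusted p = 0.826), with medians of 1.461 and 2.556 CPM. The difference between the sets did not pass (unadjusted p = 0.0508, edgeR adjusted p = 1.0). Cyp2c68 rose and Cyp2d22 fell over both sets, with log2 fold changes of 0.84 (edgeR adjusted p = 0.0346) and -1.11 (edgeR adjusted p = 0.0692). These calls were lost with the tuft covariate given below (edgeR adjusted p of 0.263 and 0.109). Cyp2c68 shares 43.3% of its windows with other Cyp2c genes. The 3 most abundant Cyp2 genes passed in none of the 4 main fits. Over both sets the log2 fold change was 0.46 for Cyp2d26, 0.60 for Cyp2c65 and 0.52 for Cyp2b10, the classical target of the receptor CAR, with edgeR adjusted p of 0.193, 0.145 and 0.316.

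Of the 8 sulfation genes, 2 fell in the STF set, where 1.33% of all genes fell. In the LTF set edgeR called 0 of them, and 1 had an unadjusted p under 0.05. Papss2, one of a pair of PAPS synthetases, had 80.19, 213.3 and 468.2 CPM in its lowest, median and highest STF RFD library and 23.2, 62.74 and 172.6 CPM in STF HFD. LTF libraries had 148.8, 269.5 and 439.7 CPM on RFD and 88.64, 132.0 and 394.0 CPM on HFD. All 11 STF HFD libraries were below the RFD median and 6 of them below every RFD library. Of the LTF HFD libraries, 10 of 12 were below the RFD median and 7 below every RFD library. The log2 fold change was -1.60 (SE 0.29, edgeR adjusted p = 0.0104) in the STF set, the smallest p of the 54 genes there, and the call held in 22 of 22 fits with 1 library left out. The LTF value was -0.77 (SE 0.23, edgeR adjusted p = 0.169). Over both sets it was -1.18 (edgeR adjusted p = 0.000199). The STF call of Papss2 was lost with limma on log2(TPM + 1) (adjusted p = 0.176) and with the tuft covariate given below. Papss1, the other PAPS synthetase, had 0.20 and 0.16 (edgeR adjusted p of 0.838 and 0.916).

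Sult2b1, a sulfotransferase of cholesterol and other hydroxysteroids, had a median of 32.24 CPM (15.56 to 66.06) in STF RFD and 16.63 CPM (12.05 to 26.17) in STF HFD. All 11 HFD libraries were below the RFD median and 5 below every RFD library. Its log2 fold change was -0.86 (SE 0.26, edgeR adjusted p = 0.0925), and the call was lost once the number series was a batch term (edgeR adjusted p = 0.155). Its LTF medians were 67.52 and 53.72 CPM, with -0.27 (SE 0.24, edgeR adjusted p = 0.759), and the difference between sets had an unadjusted p of 0.0602. Sult1b1, the most abundant sulfotransferase gene, had log2 fold changes of 0.39 and -0.07 (edgeR adjusted p of 0.527 and 0.956). Of the 6 Sult genes, 3 were higher and 3 lower in each set.

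Glutathione transferase genes showed changes in both directions. Of 18 genes, 9 were higher and 9 lower in the STF set, with a median log2 fold change of 0.06, and 12 were higher and 6 lower in the LTF set, with 0.22. The summed level differed little, with medians of 1339 and 1350 CPM in STF RFD and HFD and 1393 and 1561 CPM in the LTF groups. The theta class held opposite changes. Gstt1 had 38.61, 126.9 and 241.0 CPM in its lowest, median and highest STF RFD library and 39.45, 58.97 and 143.7 CPM in STF HFD. It fell in the STF set, with a log2 fold change of -0.91 (SE 0.27, edgeR adjusted p = 0.0833), and 10 of 11 HFD libraries were below the RFD median. That call was lost once the number series was a batch term (edgeR adjusted p = 0.106). The LTF medians were 180.0 and 110.0 CPM and the log2 fold change -0.51 (SE 0.25, edgeR adjusted p = 0.482), with 11 of 12 below the RFD median. Over both sets it was -0.70 (edgeR adjusted p = 0.0189). Gstt2, which lies on chromosome 10 with Gstt1 and Gstt3, rose over both sets by 0.60 on the log2 scale (edgeR adjusted p = 0.0391), with medians of 37.49 and 58.19 CPM in the STF set and 33.44 and 47.51 CPM in the LTF set. Gstt3 had 0.00 over both sets (SE 0.13, edgeR adjusted p = 0.991). The both-set calls of Gstt1 and Gstt2 were lost with the tuft covariate given below (edgeR adjusted p of 0.307 and 0.261).

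In the mu class, Gstm1 and Gstm2 rose over both sets, with log2 fold changes of 0.67 (edgeR adjusted p = 0.059) and 1.19 (edgeR adjusted p = 0.0267), and neither passed in a single set. With the tuft covariate given below, both calls were lost (edgeR adjusted p of 0.324 and 0.3). The median of Gstm2 went from 11.01 to 34.18 CPM in the STF set and from 3.091 to 8.76 CPM in the LTF set. In the STF set, 8 of 11 HFD libraries were above every RFD library for Gstm1 and 6 of 11 for Gstm2. Gstm3, the most abundant mu gene, had 0.67 over both sets (edgeR adjusted p = 0.104), and Gstm5 had -0.13 (edgeR adjusted p = 0.685). Gstm1 and Gstm3 share 23.1% and 28.8% of their windows with other mu genes and pseudogenes.

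The abundant members of the remaining classes did not pass in any of the 4 main fits. Gstp1, the highest gene of the 54 in TPM, had medians of 450.2 and 327.9 CPM in the STF set and 479.5 and 441.9 CPM in the LTF set, with log2 fold changes of -0.33 (SE 0.19) and -0.12 (SE 0.14). Gstp2 and Gstp3 had -0.06 and 0.14 in the STF set and 0.16 and -0.57 in the LTF set. Gsta1 had -0.29 and 0.36, Gsta3 had 1.22 and 2.06 at median levels of at most 2.9 CPM, and Gsta4, which detoxifies the lipid aldehyde 4-hydroxynonenal, had -0.55 and -0.57. Gsto1, which reduces dehydroascorbate, had 0.68 and 0.24, and Gstk1 had 0.32 and 0.90.

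Partners of these enzymes were read from lists of P450 partners, donors, transporters and regulators. Of the 3 genes that supply UDP-glucuronate, 2 rose over both sets and 1 in the LTF set, against 11.7% and 0.792% of all genes called in either direction. Ugdh, which oxidises UDP-glucose to UDP-glucuronate, went from a median of 124.5 to 181.5 CPM in the STF set and from 192.9 to 319.7 CPM in the LTF set. Its log2 fold change was 0.68 (edgeR adjusted p = 0.123) and 0.72 (edgeR adjusted p = 0.0851). Ugp2, which makes UDP-glucose, had 0.66 over both sets (edgeR adjusted p = 0.0348). Of the 6 genes for sulfate supply and PAPS transport, only the sulfate transporter Slc26a2 passed. It fell in the STF set, where 1.33% of all genes fell, by 1.00 on the log2 scale (edgeR adjusted p = 0.0667). Its STF median went from 317.2 to 139.1 CPM, and its LTF log2 fold change was -0.44 (edgeR adjusted p = 0.506).

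Of the 10 genes for glutathione supply and other glutathione transferases, 2 rose in each set and 3 over both, and none fell. Of all genes, 2.0% rose in the STF set, 0.435% in the LTF set and 6.03% over both. Mgst1, a microsomal glutathione transferase outside the name rule, rose in both sets. Its lowest, median and highest library had 17.32, 108.3 and 255.4 CPM in STF RFD and 79.43, 273.8 and 634.4 CPM in STF HFD. LTF libraries had 25.66, 59.92 and 244.4 CPM on RFD and 97.2, 262.2 and 481.4 CPM on HFD. On the log2 scale the difference was 1.60 (SE 0.41, edgeR adjusted p = 0.0662) and 1.64 (SE 0.34, edgeR adjusted p = 0.0215). Mgst2 rose in the LTF set (0.83, edgeR adjusted p = 0.0406) and Gss, glutathione synthetase, in the STF set (0.95, edgeR adjusted p = 0.097).

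Of the 7 P450 partners, 3 rose and 1 fell over both sets, where 6.03% of all genes rose and 5.68% fell. In the single sets edgeR called 0 of them, with 5 and 3 at an unadjusted p under 0.05. Por, the P450 reductase, had 0.52 (edgeR adjusted p = 0.0303), Alas1, the first enzyme of haem synthesis, 0.59 (edgeR adjusted p = 0.0439) and Cyb5b 0.56 (edgeR adjusted p = 0.0118). Cyb5a, a cytochrome b5 that passes electrons to P450 enzymes, had -0.43 (edgeR adjusted p = 0.0087). Of the 6 efflux transporters tested of 7 listed, Abcg2 rose over both sets (0.90, edgeR adjusted p = 0.00857), where 6.03% of all genes rose. Of the 17 sensors and regulators, 1 rose in the STF set (2.0% of all genes rose) and 6 over both sets (6.03% of all genes rose). In the LTF set edgeR called 0 of them, although 5 had an unadjusted p under 0.05. The gene that rose in the STF set was Cdx2, an intestinal transcription factor (0.90, edgeR adjusted p = 0.0472). Over both sets Cdx2 was joined by Hnf4g (0.90), Nr1h4, the bile acid receptor (1.05), Vdr (0.63), Nfe2l2 (0.55) and its target Nqo1 (1.12), with edgeR adjusted p between 0.017 and 0.0808. The receptor genes Nr1i2 (PXR), Nr1i3 (CAR) and Ahr passed in none of the 4 main fits. Nr1i2 had log2 fold changes of -0.04 and 0.25.

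The calls moved with the cell type markers described above. With each library's mean log2 level of the tuft markers as a covariate, 0 of the 54 genes passed edgeR in the STF set, where 14 of all genes tested did. Papss2 then had -1.37 (edgeR adjusted p = 0.122) and Ugt1a1 0.83 (edgeR adjusted p = 0.547). In the LTF set 5 genes passed with that covariate (1.3% of all genes passed). Among them were Cyp3a11 with -1.36 (edgeR adjusted p = 0.0484) and Ugt1a1 with 0.95 (edgeR adjusted p = 0.0213). Over both sets 7 passed (4.27% of all genes passed), namely Papss2, Cyp3a11, Cyp3a13, Ugt1a1, Ugt1a7c, Ugt1a9 and Ugt2b5. With the enterocyte markers as the covariate, 18 genes passed in the STF set, 7 in the LTF set and 21 over both. Of all genes tested, 13.1%, 0.977% and 16.1% passed with it. The STF values were 1.31 for Ugt1a1 (edgeR adjusted p = 0.00441) and -1.39 for Papss2 (edgeR adjusted p = 0.00824). The tuft marker sum itself had a lower median on HFD in both sets, as given above, and the part of the cell types in the diet differences was not tested.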

How the data were processed

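Sorted tuft cells of single mice were amplified with Smart-seq2, without molecular identifiers, and sequenced as paired, unstranded Nextera XT libraries. Adapter trimming (cutadapt 1.15), alignment (STAR 2.6.0) and gene quantification (RSEM) were done by the authors, and the submitters' processing notes name GRCm38. The deposited values used here are the authors' expected counts per gene, of which 8.79% of those above 0 were not whole, and the deposited TPM, which RSEM scales per length and library. FPKM tables were not used, nor were 24 columns that match no labelled sample. The authors' weighing of counts by cell type shares was not repeated.

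Expected counts were rounded. Of 47729 genes, 47224 had a symbol in GENCODE M21, 19 duplicates were removed and 14020 with more than 5 reads in at least 6 libraries were tested. The main test was edgeR 4.0.16 (R 4.3.3) with TMM, robust quasi-likelihood dispersion and Benjamini-Hochberg adjustment over all genes (adjusted p under 0.1), within STF, within LTF, for their interaction, and for diet over both sets with the set as a term. SE is the log2 fold change divided by the root of F. CPM were TMM-scaled over the 45 libraries. Mouse numbers form 3 series (1 to 8, multiples of 10, and other numbers up to 64) of 15, 13 and 15 libraries, and 2 libraries fit none. Differences within series are of mean log2(CPM + 1). Marker covariates are mean log2 CPM with a prior count of 1. Alternatives were DESeq2 1.42.0, its size factors in edgeR, limma 3.58.1 on log2(TPM + 1), a rank-sum test, no filter, the series as a batch term, marker covariates, leaving out libraries under 500000 reads, and leaving out each library. Promoter motifs were searched on both strands of RefSeq windows, and shared sequence was counted in 50-base windows of GENCODE M21 transcripts with Python.

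The text names every member called in any of the 4 main fits, the 3 members of each family with the highest median TPM (Sult with Papss, and Gsto with Gstk, each as 1 family), and the listed pathway genes that were called. Values given beside these for Cyp2u1, Cyp3a41a, Cyp3a44, Papss1, Nr1i2, Nr1i3, Ahr, Mttp, Slc5a1, Cyp2a12, Sult4a1, Cyp1a1 and the genes just outside the filter were chosen after their values were seen. The members and gene lists were chosen with earlier results of these data known. Standard errors and p-values measure the spread between libraries, 1 per mouse.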

Additional observations from a re-analysis of the deposited data

How the results depend on the processing

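The number of the 54 genes called in the STF set, 7 with edgeR, was 13 with DESeq2, 4 with a batch term for the number series, 18 with the enterocyte covariate, 0 with the tuft covariate and 0 with limma on log2(TPM + 1). It was 12 with the bias-adjusted quasi-likelihood of edgeR 4, an alternative chosen after seeing the data. With these settings 1534, 456, 1835, 14, 9 and 1606 of all genes were called, against 466. In the LTF set, 3 calls became 5 with DESeq2, 6 with the series term, 7 with the enterocyte covariate, 5 with the tuft covariate, 5 with the bias-adjusted test and 1 with the rank-sum test. Of all genes these settings called 351, 185, 137, 182, 226 and 109, against 111. Over both sets 16 calls became 7 with the tuft covariate, where 599 of all genes were called against 1642. With limma on log2(TPM + 1) they became 12, where 941 of all genes were called. Cyp3a13, Gstt1, Sult2b1, Cyp2d22 and Gstm1 lost their both-set calls with limma (adjusted p of 0.154, 0.174, 0.194, 0.203 and 0.138). The interaction gave 0 of the 54 genes in every alternative run, with 4 of all genes in the bias-adjusted test and 65 without the filter. With 1 library left out, the STF count ranged from 1 to 14, the LTF count from 1 to 7, the count over both sets from 14 to 20 and the interaction count from 0 to 0. The STF count was 1 without RFD mouse 1 or HFD mouse 6, 2 to 4 without RFD mice 3, 21, 22, 23, 24 or 84 or HFD mice 5, 8, 50, 62, 70 or 80, 12 without RFD mouse 20 and 14 without HFD mouse 64. The LTF count was 7 without RFD mouse 1, 6 without RFD mouse 3 and 5 without HFD mouse 65, and it was 1 without RFD mice 10, 21, 22, 24 or 30 or HFD mice 7 or 32. Of the single genes, Papss2 in the STF set and Cyp3a11 in the LTF set kept their calls in all fits with 1 library left out. Papss2 lost its STF call with limma (adjusted p = 0.176) and the tuft covariate (edgeR adjusted p = 0.122), and Cyp3a11 its LTF call with limma (0.185) and the rank-sum test (0.128). With the series term Ugt1a1, Ugt2b5, Sult2b1 and Gstt1 lost their STF calls (edgeR adjusted p of 0.108, 0.157, 0.155 and 0.106). Ugt2b5 kept its STF call in 20 of 22 and lost it without RFD mouse 1 or HFD mouse 6, where the adjusted p reached at most 0.11. The STF calls of Ugt1a1, Ugt1a7c, Cyp2e1, Sult2b1 and Gstt1 held in 9, 11, 10, 7 and 6 of 22 fits, and the LTF calls of Ugt1a1 and Ugt1a9 in 15 and 10 of 23, with adjusted p of at most 0.183. Over both sets 13 of the 16 calls held in 45 of 45 fits, those of Sult2b1 in 44, Cyp2d22 in 40 and Cyp2e1 in 25. None of the 16 called genes changed direction in the alternatives run. The cause of these shifts was not tested. Without libraries under 500000 reads, 5 of the 54 genes were called in the STF set, where 290 of all genes were. Ugt1a1 and Cyp2e1 lost their STF calls there (edgeR adjusted p of 0.138 and 0.106). No library of the LTF set was under 500000 reads, so that alternative gave no value for the LTF set. No paired analysis was possible because RFD and HFD mice of a set share no number. With total reads of 189340 to 4690213, genes at a few CPM such as Ugt1a9, Cyp2e1 and Gsta3 rest on few reads.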
